A study of Mus musculus with 6 samples.

Results

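The genes described here are the granzyme genes Gzma, Gzmc and Gzmk and the cathepsin gene Ctsw in cultured mouse CD4 T cells, measured as messenger RNA on arrays. They were chosen by name from genes that an earlier analysis of these same arrays had found higher in wells with BTNL2 than in wells with B7-2 alone. Every probe set annotated to one of the 4 genes was taken. There was 1 probe set per gene, so the members were 4 of 45141 probe sets and 4 of the 17097 genes tested. Because the difference between BTNL2 and B7-2 wells chose the members, their values in it are given as a description with no test. The same holds for BTNL2 against anti-CD3, which rests on the same BTNL2 arrays. B7-2 against anti-CD3 was tested, but it shares the B7-2 arrays with the difference that chose the members. A low value on those arrays favours both, so a member's p-value for a fall with B7-2 is not independent of the choice.

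CD25-positive cells were removed with magnetic beads and CD4-positive T cells were then selected from female C57BL/6 mice, from spleen by one label and from spleen and lymph nodes by another. Cultures ran for 4 days in 12-well plates, and the medium of every group contained 0.36 ng/ml TGF-beta with 10 ng/ml IL-2. The anti-CD3 wells were coated with an antibody to CD3 (clone 2C11, 2 µg/ml), which engages the T cell receptor complex, and a control IgG. The B7-2 wells carried the same antibody and IgG with recombinant B7-2.Fc at 3 µg/ml, an Fc fusion of the CD28 and CTLA-4 ligand CD86. The BTNL2 wells carried anti-CD3, B7-2.Fc and recombinant BTNL2.Fc at 11 µg/ml, a butyrophilin-like member of the wider B7 family, in place of the control IgG. Each group had 2 cultures with 1 array each. Nothing in the labels says that duplicate cultures came from separate animals, so p-values reflect only the spread of these arrays, which may be technical.

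Granzymes are serine proteases that cytotoxic lymphocytes store in secretory granules, bound to the proteoglycan serglycin. On contact with a target cell the granules are released, and perforin opens the way for granzymes into the target cell, where they cleave proteins and can start cell death. Granzyme A and granzyme K are trypsin-like enzymes that cut after basic residues, granzyme B cuts after aspartate and activates caspases, and granzyme C is a rodent enzyme encoded beside granzyme B. Cathepsin W is a papain-like cysteine protease found mainly in natural killer cells and cytotoxic T cells. These genes are best known from CD8 T cells and natural killer cells, but CD4 T cells can also acquire cytotoxic granules.

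All members but Ctsw have an entry in the RefSeq promoter table used here (GRCm38.p6), and the sequence before the start of these 3 genes is shown because short transcription factor motifs occur in them in different combinations. Each run is the 250 bases upstream of the annotated start, read 5′ to 3′ on the gene's own strand, which is the minus strand in each case. The windows are chr13:113100982-113101231 for Gzma, chr13:113180966-113181215 for Gzmk and chr14:56234658-56234907 for Gzmc. The window of Gzme, chr14:56120626-56120875, is shown beside Gzmc as its near copy. Capitals mark matches, on either strand, to the RUNX core TGTGGT, the T-box half-site AGGTGT, the cAMP response element TGACGTCA and the NFAT core GGAAAA. No 2 marked matches overlap.
Gzma: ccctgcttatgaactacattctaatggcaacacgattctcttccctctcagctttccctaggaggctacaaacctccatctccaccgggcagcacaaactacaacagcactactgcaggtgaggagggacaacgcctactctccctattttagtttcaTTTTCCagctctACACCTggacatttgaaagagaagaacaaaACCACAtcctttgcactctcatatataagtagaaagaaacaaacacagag
Gzmk: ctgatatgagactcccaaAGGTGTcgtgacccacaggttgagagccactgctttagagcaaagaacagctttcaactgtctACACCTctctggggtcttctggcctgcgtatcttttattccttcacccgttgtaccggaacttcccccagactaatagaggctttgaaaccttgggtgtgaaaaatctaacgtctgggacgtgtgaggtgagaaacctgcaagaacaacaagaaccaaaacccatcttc
Gzmc: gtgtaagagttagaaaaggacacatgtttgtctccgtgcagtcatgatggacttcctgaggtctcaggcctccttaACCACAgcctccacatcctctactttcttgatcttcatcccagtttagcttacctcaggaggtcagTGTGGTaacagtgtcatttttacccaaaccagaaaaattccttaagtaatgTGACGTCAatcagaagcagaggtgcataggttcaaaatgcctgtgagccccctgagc
Gzme: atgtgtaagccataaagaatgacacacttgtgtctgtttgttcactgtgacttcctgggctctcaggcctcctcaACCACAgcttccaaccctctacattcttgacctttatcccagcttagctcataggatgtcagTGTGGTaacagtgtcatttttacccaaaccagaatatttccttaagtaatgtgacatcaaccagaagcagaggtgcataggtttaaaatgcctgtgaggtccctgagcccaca

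The Gzma window held 1 RUNX core, 1 T-box half-site and 1 NFAT core. The Gzmk window held 2 T-box half-sites and none of the other motifs. The Gzmc window held 2 RUNX cores and 1 cAMP response element, 57 to 50 bases before the start. Neither was particular to Gzmc. The windows of Gzmf and Gzmg, not shown, also held 1 cAMP response element each, and Gzmf was not called in any comparison. Those of Gzmb, Gzmd, Gzme, Gzmf and Gzmg each held 2 RUNX cores. Of 32851 RefSeq promoter windows of the same length, 14.0% held the RUNX core, 11.8% the T-box half-site, 1.55% the cAMP response element and 20.4% the NFAT core. Aligned over their whole length, the windows of Gzmc and Gzme were 80.9% identical, and those of Gzmc and Gzmd 80.5%. The windows of Gzma and Gzmk, which lie next to each other on chromosome 13, were 45.3% identical, close to Gzma and Gzmc at 44.6%. A match is a description of the letters, and the arrays hold no measurement of binding. The motifs were chosen after the expression values had been seen.

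All 4 members were highest in the BTNL2 wells, and in each of them both BTNL2 arrays lay above all 4 other arrays. This is a description, since they were chosen for being higher with BTNL2 than with B7-2. The share of all genes with this pattern is not given. The members differed in what B7-2 alone did. Ctsw and Gzmc were lower with B7-2 than with anti-CD3 alone, while Gzma and Gzmk passed no test. Levels below are RMA intensities on a linear scale, which can be compared between arrays for 1 probe set but not between probe sets. A change is a log2 difference with its standard error from limma (n = 2 arrays per group), and a gene was called where its Benjamini-Hochberg adjusted p over all 17097 genes was below 0.05.

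Gzma encodes granzyme A. Its intensity was 1549.97 and 1727 on the anti-CD3 arrays, 1869 and 1900.4 on the B7-2 arrays, and 4828 and 5411 on the BTNL2 arrays. The anti-CD3 and B7-2 arrays lay close together without overlapping, and the BTNL2 arrays stood clearly above both. The B7-2 wells differed from the anti-CD3 wells by 0.20 ± 0.10 on the log2 scale (limma, adjusted p = 0.210), with a 95% interval of -0.04 to 0.44. With a variance prior that follows intensity, this difference was called (limma, adjusted p = 0.0245). In the BTNL2 wells Gzma was 2.71-fold the level of the B7-2 wells (1.44 ± 0.10) and 3.12-fold that of the anti-CD3 wells (1.64 ± 0.10).

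Gzmk encodes granzyme K and is the neighbour of Gzma. Its intensity was 29.4 and 31.5 on the anti-CD3 arrays, 23.8 and 33.2 on the B7-2 arrays, and 91.9 and 66.2 on the BTNL2 arrays. The B7-2 arrays straddled the anti-CD3 arrays, and both BTNL2 arrays were higher than all others, though they differed from each other 1.39-fold. The difference between B7-2 and anti-CD3 wells was -0.11 ± 0.20 (limma, adjusted p = 0.746), and it was 0.13 when the first B7-2 array was left out. Against B7-2, Gzmk in the BTNL2 wells was 2.77-fold higher (1.47 ± 0.20), and against anti-CD3 it was 2.56-fold higher (1.36 ± 0.20). Gzmk had the dimmest signal among the members, and array medians were 18.4 to 18.8. Adding 16 to each intensity before the log, which damps dim signals, gave differences of 1.09 and 1.02.

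Gzmc encodes granzyme C. Its intensity was 322 and 419 on the anti-CD3 arrays, 252 and 240 on the B7-2 arrays, and 2189.7 and 2644 on the BTNL2 arrays. The 3 groups did not overlap, with B7-2 lowest and BTNL2 highest. Gzmc fell by 0.58 on the log2 scale from anti-CD3 to B7-2 wells (SE 0.15, limma, adjusted p = 0.0309), on B7-2 arrays that also served to choose it. That call rested on single arrays: without the second anti-CD3 array the adjusted p was 0.145 (difference -0.39), and leaving out the first or second B7-2 array it was 0.0872 or 0.121 (limma). Gzmc had the largest BTNL2 differences among the members, 9.78-fold against B7-2 (3.29 ± 0.15) and 6.55-fold against anti-CD3 (2.71 ± 0.15).

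Ctsw encodes cathepsin W. Its intensity was 2416 and 2582 on the anti-CD3 arrays, 446 and 410.3 on the B7-2 arrays, and 3274 and 2771 on the BTNL2 arrays. The B7-2 arrays stood far below the other 4, and the BTNL2 arrays were slightly above the anti-CD3 arrays. Ctsw fell by 2.54 on the log2 scale from anti-CD3 to B7-2 wells (SE 0.11, 5.84-fold lower, limma, adjusted p = 0.000109). The fall was called in every alternative processing tried. Its B7-2 arrays also served to choose Ctsw, so this p-value is not independent of the choice. In the BTNL2 wells Ctsw was 7.04-fold the B7-2 level (2.82 ± 0.11), but 1.21-fold the anti-CD3 level (0.27 ± 0.11). That last difference was 0.15 without the first BTNL2 array and 0.39 without the second. Thus the order of groups for Ctsw was B7-2, then anti-CD3 and BTNL2 near each other, whereas for Gzma and Gzmk anti-CD3 and B7-2 were the near neighbours.

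**Figure D1:**
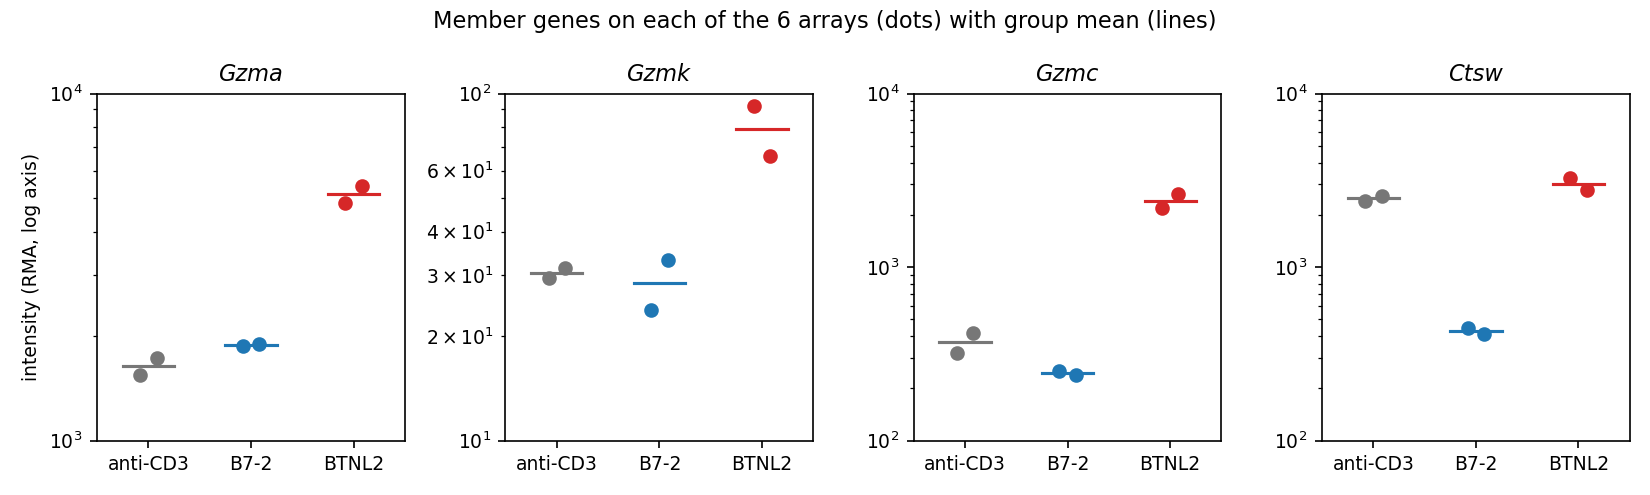
Intensity (RMA, log axis, a separate range in each panel) of Gzma, Gzmk, Gzmc and Ctsw in the anti-CD3, B7-2 and BTNL2 wells; dots are the 2 arrays of each group and lines their mean. Ctsw is the member with a wide gap between anti-CD3 arrays (2416 and 2582) and B7-2 arrays (446 and 410.3), and Gzmc has the widest gap between B7-2 and BTNL2 arrays.

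Between B7-2 and anti-CD3 wells, 2 of the 4 members were called, both lower. In that comparison 24.5% of all genes were called, 13.3% lower and 11.2% higher. The B7-2 arrays also entered the difference by which the members were chosen, so a low value on them favours both. Between BTNL2 and B7-2 wells 20.4% of all genes were called, 9.52% higher and 10.8% lower. Between BTNL2 and anti-CD3 wells the share was 30.4%, with 14.2% higher and 16.2% lower. At least 2-fold differences were seen for 3.89%, 5.22% and 7.15% of genes in the 3 comparisons. Against B7-2 all 4 members passed a 2-fold difference and against anti-CD3 the 3 granzymes did, from which nothing is read since they were chosen for it. The comparisons share arrays: B7-2 and anti-CD3 arrays each enter 2 of them.

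Some of the other granzyme genes were higher with BTNL2, as the members were, and none was called lower. Of the 7 measured, 3 were called higher in BTNL2 wells against B7-2 wells (Gzmb, Gzme and Gzmg). That is 42.9%, beside 9.52% of all genes called higher. Against anti-CD3, 4 were called higher (Gzmb, Gzmd, Gzme and Gzmm), or 57.1% beside 14.2%. Between B7-2 and anti-CD3 wells 1 was called, Gzmg, which was lower (14.3%, beside 13.3% of all genes called lower). These shares were not tested. The medians of the 7 differences were 0.49, 0.61 and 0.21 in these comparisons, beside -0.011, -0.0046 and -0.0048 for all genes.

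Gzmb, the gene of the caspase-activating granzyme B, was 2503 and 2816 on the anti-CD3 arrays, 2780.4 and 3019 on the B7-2 arrays, and 3632 and 4544 on the BTNL2 arrays. The BTNL2 arrays were the 2 highest, but the gap was small beside those of Gzma and Gzmc. Gzmb rose by 0.49 ± 0.13 against B7-2 (limma, adjusted p = 0.0398) and by 0.61 ± 0.13 against anti-CD3 (limma, adjusted p = 0.0111). The first of these was lost without the first or second B7-2 array (0.43 and 0.55) or the second BTNL2 array (0.33). It was also lost with only the B7-2 and BTNL2 groups fitted (limma, adjusted p = 0.0576). Leaving out an anti-CD3 array gives that same fit. The second was lost without the first anti-CD3 array (0.53, limma, adjusted p = 0.0723) or the second BTNL2 array (0.45, limma, adjusted p = 0.0502).

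Gzme and Gzmd lie between Gzmg and the mast cell protease genes and have near-identical copies in each other, with promoter windows 94.8% identical. Gzme was 24.8 and 29.4 with anti-CD3, 35.5 and 27.3 with B7-2, and 77.9 and 283 with BTNL2. Its BTNL2 arrays were above the others but 3.63-fold apart. It rose by 2.25 ± 0.52 against B7-2 (limma, adjusted p = 0.0224), a call lost without either B7-2 array (limma, adjusted p = 0.0630 and 0.0936), and by 2.46 ± 0.52 against anti-CD3 (limma, adjusted p = 0.0104), lost without the first anti-CD3 array (limma, adjusted p = 0.0596).

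Gzmd was 17.0 and 36.8 with anti-CD3, 35.5 and 29.4 with B7-2, and 55.7 and 141 with BTNL2. The second BTNL2 array was again the highest. The difference from B7-2 was 1.46 ± 0.48 (limma, adjusted p = 0.0771), and Gzmd rose by 1.83 ± 0.48 against anti-CD3 (limma, adjusted p = 0.0257), a call lost without the first anti-CD3 array (1.27) or the second BTNL2 array (1.16). The probe sets of Gzmd and Gzme can share sequence, so their signals cannot be assigned to 1 gene with certainty.

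Gzmg was 13.4 and 20.1 with anti-CD3, 9.5 and 9.43 with B7-2, and 22.3 and 32.5 with BTNL2. It had the same order of groups as Gzmc, lowest with B7-2 and highest with BTNL2. It fell from anti-CD3 to B7-2 (-0.79 ± 0.23, limma, adjusted p = 0.0443) and rose from B7-2 to BTNL2 (1.51 ± 0.23, limma, adjusted p = 0.00396). The fall was lost in 6 of the 16 alternatives tried, among them the added offset of 16 (-0.35, limma, adjusted p = 0.111) and leaving out the second anti-CD3 array or either B7-2 array. Its intensities were near the array median, so the fall rests on dim signal.

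Gzmm, whose gene lies apart from the others on chromosome 10, was 28.5 and 32.2, 38.0 and 36.3, and 37.7 and 38.7 in anti-CD3, B7-2 and BTNL2 wells. It rose by 0.33 ± 0.10 from anti-CD3 to BTNL2 wells (limma, adjusted p = 0.0373), a small change. Its call was lost in 9 of the 16 alternatives, among them leaving out the first anti-CD3 array or either BTNL2 array. The call was also lost when only those 2 groups were fitted. Leaving out either B7-2 array gives that same fit, so the 9 are not all separate. Gzmf was 16.8 and 14.9, 25.7 and 24.5, and 15.3 and 27.2 in the same order and was not called in any comparison. Its difference between B7-2 and anti-CD3 wells, 0.67 ± 0.24, was called when only those 2 groups were fitted (limma, adjusted p = 0.00706); its BTNL2 arrays differed 1.77-fold. Gzmn lay between 5.68 and 6.82 on all arrays, close to the nonspecific control probe sets, and was not called.

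**Figure D2:**
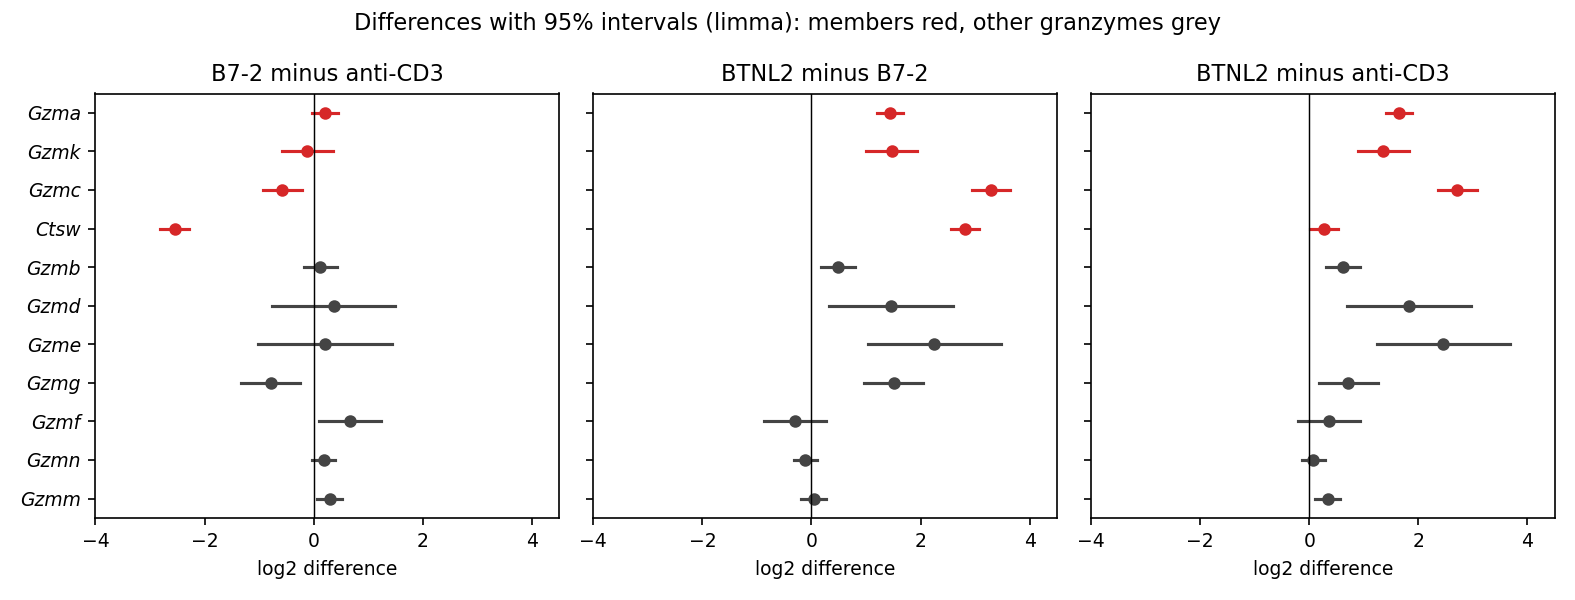
Log2 difference and 95% interval from limma for the 4 member genes (red) and the 7 other granzyme genes (grey) in each comparison, 2 arrays per group. For BTNL2 against B7-2 the members lie between 1.44 and 3.29 and are shown as a description; among the others Gzme (2.25) and Gzmd (1.46) have the widest intervals.

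The position of these genes can be set beside their values. On chromosome 14 the RefSeq gene order runs Mcpt1, Mcpt2, Mcpt9, Mcpt4, Mcpt8, Ctsg, Gzme, Gzmd, Gzmg, Gzmn, Gzmf, Gzmc and Gzmb. The mast cell protease genes and Ctsg, the gene of cathepsin G, lay between 4.33 and 15.4 on all arrays and none was called. Both BTNL2 arrays lay above the other 4 arrays at Gzme, Gzmd, Gzmg, Gzmc and Gzmb, but not at Gzmn or Gzmf between them. How many of all genes show this pattern is not given. On chromosome 13 the pair Gzma and Gzmk lies between Gpx8 and Esm1. Gpx8 was not called, and Esm1, an endothelial proteoglycan gene, was higher with B7-2 than with anti-CD3 (1.44 ± 0.15, limma, adjusted p = 0.000891) with no call between BTNL2 and B7-2 (-0.18 ± 0.15, limma, adjusted p = 0.460). On chromosome 19 Ctsw lies beside Fibp, which fell from anti-CD3 to B7-2 (-0.70 ± 0.09, limma, adjusted p = 0.0019) and was not called between BTNL2 and B7-2 (-0.17 ± 0.09, limma, adjusted p = 0.243). These neighbours were chosen after the members' values had been seen.

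**Figure D3:**
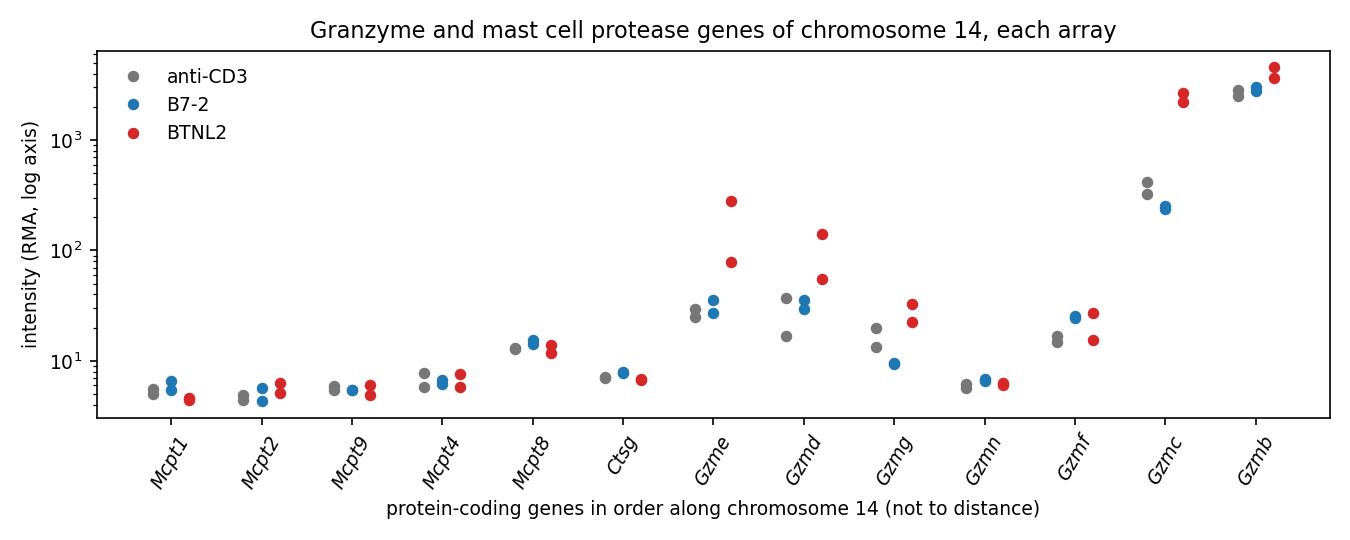
Intensity (RMA, log axis) of the granzyme and mast cell protease genes in their order along chromosome 14, not to distance, with 1 dot per array coloured by group. BTNL2 arrays stand apart at Gzme, Gzmd, Gzmg, Gzmc and Gzmb, while the mast cell protease genes and Gzmn stay between 4.33 and 15.4; heights of different genes cannot be compared.

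Genes that act with granzymes were called in both directions. The 7 lists together, which hold the other granzymes, granule contents, activating proteins, secretion genes, serpins, cathepsins and transcription factors, had 75 of 84 genes measured. Between BTNL2 and B7-2 wells 23 were called higher and 15 lower (50.7%, beside 20.4% of all genes), with a median of 0.07. Between BTNL2 and anti-CD3 wells 22 were higher and 24 lower (61.3%, beside 30.4%), and between B7-2 and anti-CD3 wells 10 were higher and 15 lower (33.3%, beside 24.5%). The pooled shares hide differences between lists: between BTNL2 and B7-2 wells 77.8% of the transcription factors were called, but 27.8% of the secretion genes and 25% of the 4 activating genes. The lists were made with earlier results of these data known, and none of these shares was tested against that of all genes.

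Among granule contents and death ligands, 4 of 10 measured genes rose from B7-2 to BTNL2 wells and 1 fell (50%, beside 20.4% of all genes). Nkg7, a granule membrane protein needed for exocytosis of cytotoxic granules, rose by 0.43 ± 0.09 (limma, adjusted p = 0.0143). Tnfsf10, the gene of the death ligand TRAIL, rose by 1.47 ± 0.14 (limma, adjusted p = 0.000438), and Fasl, the ligand of the death receptor Fas, by 0.57 ± 0.11 (limma, adjusted p = 0.00992), a call lost without the second B7-2 array (limma, adjusted p = 0.0547). Unlike Ctsw, Fasl was already higher with B7-2 than with anti-CD3 (1.67 ± 0.11, limma, adjusted p = 0.000231). Srgn, the serglycin gene, was 4634 ± 23.3 (SD, n = 2) with anti-CD3, 4286 ± 50.2 with B7-2 and 3300 ± 33.9 with BTNL2. It fell from B7-2 to BTNL2 by 0.38 (limma, adjusted p = 0.0186), a call lost without either B7-2 or either BTNL2 array.

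The perforin gene Prf1 was represented by probe sets that disagreed. The brighter was 101 and 101 with anti-CD3, 126 and 127 with B7-2, and 136 and 130.4 with BTNL2. The dimmer was 43.8 and 35.1, 23.1 and 18.1, and 54.8 and 91.8 in the same order, which is the order of groups seen for Ctsw and Gzmc. On the brighter probe set the difference between B7-2 and anti-CD3 wells was 0.33 ± 0.08 (limma, adjusted p = 0.0271), a call lost without any one of those 4 arrays, and on the mean of both the difference was -0.30. From B7-2 to BTNL2 the brighter gave 0.07 ± 0.08 (limma, adjusted p = 0.650) and the mean of both 0.93. No direction for Prf1 is therefore given in either comparison. From anti-CD3 to BTNL2 wells both probe sets were higher, by 0.40 and 0.86 (limma over all probe sets, adjusted p = 0.0185 and 0.0437). On the gene level that difference was 0.35 to 0.63 over the alternatives tried, and its call was lost in 3 of them.

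Granzymes are made as inactive precursors, and cathepsin C, from Ctsc, removes their activation peptide. Ctsc rose from anti-CD3 to B7-2 (0.44 ± 0.09, limma, adjusted p = 0.0134), a call lost without either anti-CD3 array or the second B7-2 array and absent from the mean of its 3 probe sets (0.0066). It was not called between B7-2 and BTNL2 (0.05 ± 0.09, limma, adjusted p = 0.755). Cst7, the gene of cystatin F, an inhibitor of cathepsin C in granules, was 3016 ± 165 with anti-CD3, 1515 ± 7.11 with B7-2 and 1354 ± 87.4 with BTNL2 (SD, n = 2). It fell from anti-CD3 to B7-2 by 0.99 (limma, adjusted p = 0.000713), as Ctsw did, but its BTNL2 arrays stayed near the B7-2 arrays (-0.16 ± 0.09, limma, adjusted p = 0.291).

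Of 18 genes of granule transport and secretion, 2 rose and 3 fell between B7-2 and BTNL2 wells (27.8%, beside 20.4% of all genes). Those that rose were Rab27a, the GTPase that docks granules at the membrane (0.63 ± 0.09, limma, adjusted p = 0.00272), and Lyst, the Chediak-Higashi gene of lysosome size (1.04 ± 0.09, limma, adjusted p = 0.000341). Both had fallen from anti-CD3 to B7-2, by 0.44 and 0.58 (limma, adjusted p = 0.0117 and 0.00449). The fall of Rab27a was lost without the first anti-CD3 array or the second B7-2 array, and on the mean of its 4 probe sets (-0.12). On the mean of its 3 probe sets the rise of Lyst was 0.42. Sytl3, a synaptotagmin-like protein gene, went the other way, 1.71 ± 0.10 from anti-CD3 to B7-2 and -0.86 ± 0.10 from B7-2 to BTNL2 (limma, adjusted p = 0.000167 and 0.000938). Stxbp2, the gene of Munc18-2, fell from anti-CD3 to B7-2 (-0.60 ± 0.08, limma, adjusted p = 0.00281) with no call between B7-2 and BTNL2 (-0.06 ± 0.08, limma, adjusted p = 0.715). Unc13d, the gene of the granule priming factor Munc13-4, was called in neither of these 2 comparisons (-0.16 and -0.20).

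Cytotoxic cells protect themselves with serpins. Of the 6 serpin genes measured 5 were higher and 1 lower in BTNL2 than in anti-CD3 wells (100%, beside 30.4% of all genes called). Serpinb9, whose product inhibits granzyme B, was 200.5 ± 27.5 with anti-CD3, 501 ± 15.2 with B7-2 and 773 ± 52.7 with BTNL2 (SD, n = 2), so each coating was higher than the one before. It rose by 1.33 ± 0.12 with B7-2 (limma, adjusted p = 0.000594) and by a further 0.62 ± 0.12 with BTNL2 (limma, adjusted p = 0.0104). The further rise was lost without the first B7-2 array or the first BTNL2 array (limma, adjusted p = 0.0575 and 0.0653). Serpinb1a had the pattern of Gzmc, -0.82 ± 0.09 and then 1.56 ± 0.09 (limma, adjusted p = 0.00127 and 6.77e-05). Serpinb6b was opposite, 1.16 ± 0.09 and then -0.50 ± 0.09 (limma, adjusted p = 0.00036 and 0.00679), and Serpinb6a fell only in the second step (-1.21 ± 0.10, limma, adjusted p = 0.000263).

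Of 12 other cathepsin genes measured, none rose and 3 fell from anti-CD3 to B7-2 (Ctsa, Ctse and Ctsh). That is 25%, beside 24.5% of all genes called and 13.3% called lower. Dimmer probe sets of Ctsf (-1.17) and Ctsb (-0.57 and -0.52) also fell, while those of Ctsl and Ctsz did not. Ctsh, a cysteine protease gene, was 49.5 and 46.2 with anti-CD3, 30.5 and 37.6 with B7-2, and 49.7 and 55.7 with BTNL2. This is the order of groups of Ctsw at a smaller size, -0.50 ± 0.13 and then 0.63 ± 0.13 (limma, adjusted p = 0.0279 and 0.0126), with no call between BTNL2 and anti-CD3 (0.14 ± 0.13, limma, adjusted p = 0.488). The fall of Ctsh was lost without either anti-CD3 array or the first B7-2 array, and its rise without the first B7-2 array or the second BTNL2 array. Ctsa fell with B7-2 (-0.74 ± 0.11, limma, adjusted p = 0.00323) and was not called between B7-2 and BTNL2 (0.10 ± 0.11, limma, adjusted p = 0.583). The fall of Ctsa was lost on the mean of its probe sets (-0.30, limma, adjusted p = 0.0970). Ctse, an aspartic protease gene, fell by 2.19 ± 0.16 and then rose by 1.00 ± 0.16 with BTNL2 (limma, adjusted p = 0.000335 and 0.0047), but it stayed below the anti-CD3 level (-1.19 ± 0.16, limma, adjusted p = 0.00133). Ctsl and Ctss, lysosomal cysteine protease genes, moved in opposite directions with BTNL2 (-1.25 ± 0.15 and 1.01 ± 0.14, limma, adjusted p = 0.00128 and 0.00287).

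**Figure D4:**
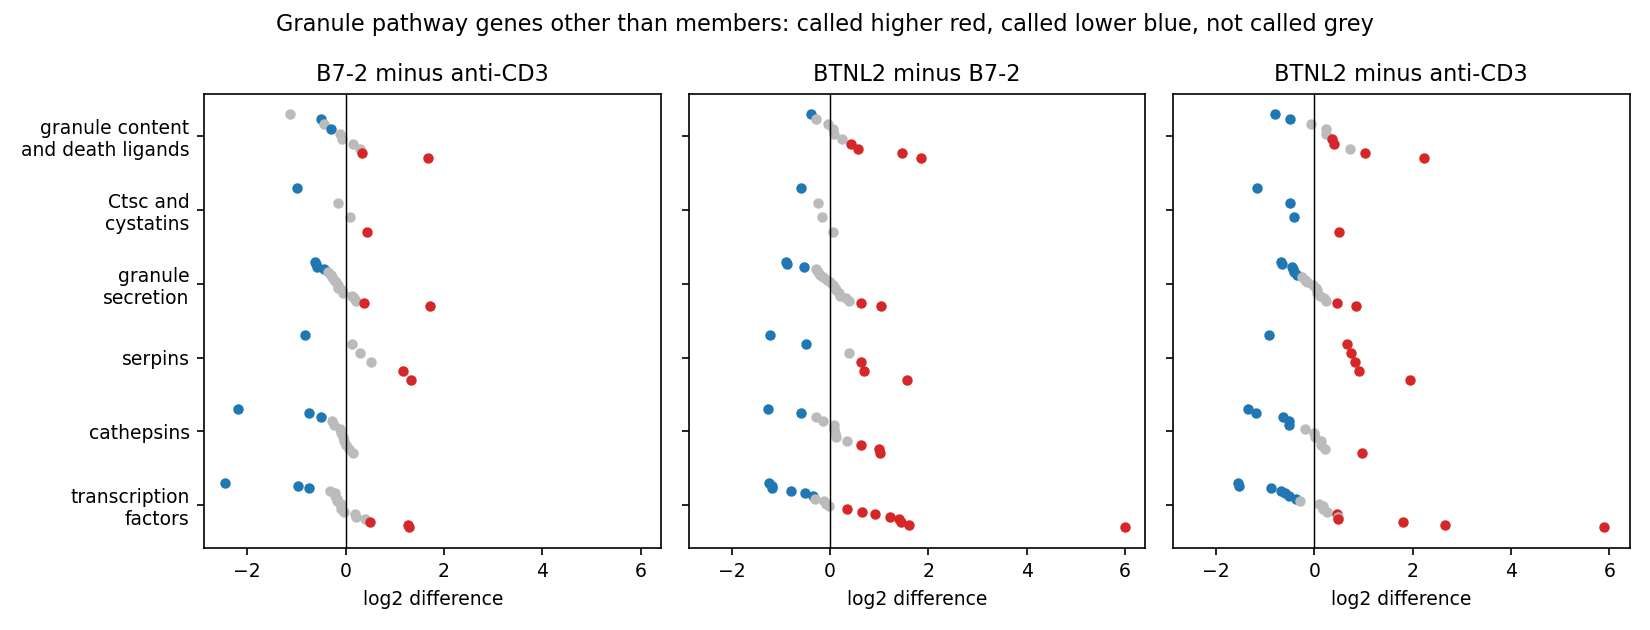
Log2 difference of each measured gene of 6 granule groups, members and other granzymes left out, in each comparison; 1 dot per gene, red called higher, blue called lower and grey not called (limma, adjusted p below 0.05). Calls in both directions appear in most groups, and the far dot among transcription factors is Eomes at 6.00 against B7-2 and 5.90 against anti-CD3.

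Among 18 transcription factors tied to cytotoxic T cells, 8 rose and 6 fell from B7-2 to BTNL2 wells (77.8%, beside 20.4% of all genes). Eomes, the T-box factor of cytotoxic lymphocytes, was 21.1 and 17.7 with anti-CD3, 20.0 and 16.3 with B7-2, and 1337 and 991 with BTNL2. It rose by 6.00 ± 0.18 against B7-2 (limma, adjusted p = 5.55e-06), and its other probe set, at 15.4 and 15.8 with B7-2 and 889 and 804 with BTNL2, gave the same order. Eomes did not differ detectably between B7-2 and anti-CD3 wells (-0.10 ± 0.18, limma, adjusted p = 0.757), where its signal was dim. Tbx21, the gene of the other T-box factor T-bet, was not called between BTNL2 and B7-2 (-0.30 ± 0.16, limma, adjusted p = 0.248).

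Runx3, a factor of cytotoxic lineage choice, rose by 0.64 ± 0.09 from B7-2 to BTNL2 (limma, adjusted p = 0.00224). Prdm1, the Blimp-1 gene, was opposite to Ctsw, 1.28 ± 0.10 from anti-CD3 to B7-2 and -1.18 ± 0.10 from B7-2 to BTNL2 (limma, adjusted p = 0.000445 and 0.000324). Bcl6, a repressor that opposes Blimp-1, and Stat4, a signal transducer of IL-12, fell with B7-2 and rose with BTNL2. The values were -2.45 and 0.92 for Bcl6 and -0.74 and 1.23 for Stat4 (limma, adjusted p = 0.000193, 0.00502, 0.00252 and 0.000262). A dimmer probe set of Bcl6 showed no call (-0.15 and -0.085), and the mean of both gave -1.30 and 0.42.

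Cd4 and Cd3e, defining genes of the labelled CD4 T cells, had signal on all arrays, but markers of other lymphocytes moved with the members. Cd4 fell from 1631 ± 104 with anti-CD3 to 1131 ± 39.4 with BTNL2 (SD, n = 2, -0.53 ± 0.09, limma, adjusted p = 0.00513), and Cd3e was called in no comparison. Of 9 genes measured in the CD4 T cell list, 3 were lower and none higher with B7-2 than with anti-CD3. That is 33.3%, beside 24.5% of all genes called and 13.3% called lower. With BTNL2, 2 of the 9 were lower and 1 higher than with B7-2 (33.3%, beside 20.4%). Against anti-CD3, 4 were lower and 1 higher with BTNL2 (55.6%, beside 30.4%). Cd28, for example, had means of 1606, 1011 and 601 in anti-CD3, B7-2 and BTNL2 wells. Cd8a was 302 and 321 with anti-CD3, 119 and 107 with B7-2, and 987 and 924 with BTNL2. This is the order of groups of Gzmc, and the changes were -1.47 ± 0.10, 3.08 ± 0.10 and 1.62 ± 0.10 (limma, adjusted p = 0.000273, 8.41e-06 and 5.82e-05). Cd8b1 fell by 0.89 from anti-CD3 to B7-2 and rose by 1.31 from B7-2 to BTNL2 (limma, adjusted p = 0.00548 and 0.00103). Between BTNL2 and anti-CD3 wells the Cd8b1 difference of 0.43 was not called, though it was in some of the alternatives tried. Summed over both CD8 genes the level was 370.1 to 385 with anti-CD3, 137 to 161 with B7-2 and 1016 to 1073 with BTNL2. Most of that sum was the signal of Cd8a.

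Of 12 natural killer cell genes measured, 6 were higher and none lower in BTNL2 than in B7-2 wells. That is 50%, beside 20.4% of all genes called and 9.52% called higher. The sum of the 12 genes was 3119 to 3128 with anti-CD3, 2917 to 2953 with B7-2 and 5156 to 5247 with BTNL2. Most of it was the signal of Il2rb, at 2754 and 2719, 2658 and 2679, and 3228 and 3486. Those called higher were Eomes, Il2rb, Klrk1, Klrd1, Tyrobp and Fcer1g. Il2rb had 3 probe sets, with differences of 0.33, 0.13 and 0.23. None was called when each probe set was tested (limma, adjusted p = 0.0626, 0.496 and 0.284). Klrk1, the NKG2D gene, was 31.1 and 34.1 with B7-2 and 179 and 162 with BTNL2 (2.38 ± 0.15, limma, adjusted p = 7.39e-05). Klrd1, the CD94 gene, was 129 and 149 with anti-CD3, 32.6 and 42.2 with B7-2, and 201 and 219.5 with BTNL2, the order of groups of Gzmc. Fcer1g, an adaptor of activating receptors, was 46.6 and 47.6 with B7-2 and 148 and 153 with BTNL2 (1.68 ± 0.08, limma, adjusted p = 3.61e-05). The 5 besides Eomes were named after their values had been seen. The defining genes Ncr1 and Klrb1c lay between 4.75 and 6.62 and between 25.7 and 38.7 and were not called. Of gamma-delta T cell genes 2 of 8 were measured, summing to 30.6 to 31.9, 20.4 to 22.6 and 679 to 882. The rise was that of Trgv1, at 22.9 and 24.9, 16.6 and 14.5, and 875 and 673, the other being Sox13, and Trdc was not measured. B cell genes (8 of 9 measured) summed to 759 to 789, 482 to 511 and 696 to 882. From anti-CD3 to B7-2, 4 of them fell and none rose (50%, beside 24.5% of all genes called and 13.3% called lower). From B7-2 to BTNL2, 4 rose and 1 fell (62.5%, beside 20.4%). Myeloid genes summed to 236 to 255, 188 to 200 and 160.1 to 170 in anti-CD3, B7-2 and BTNL2 wells. In each comparison 1 of 11 was called lower and none higher (9.09%, beside 13.3%, 10.8% and 16.2% of all genes called lower). Cd68 had means of 132, 85.7 and 55.5 in these groups. Mast cell and basophil genes summed to 97.6 to 132 over all arrays. The defining genes of these cell types, Csf1r, Lyz2, Fcer1a and Cpa3, were dim and not called. The part of these markers in the members' values was not tested, and in bulk RNA a larger share of cells that express a gene cannot be told apart from more RNA per cell.

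**Figure D5:**
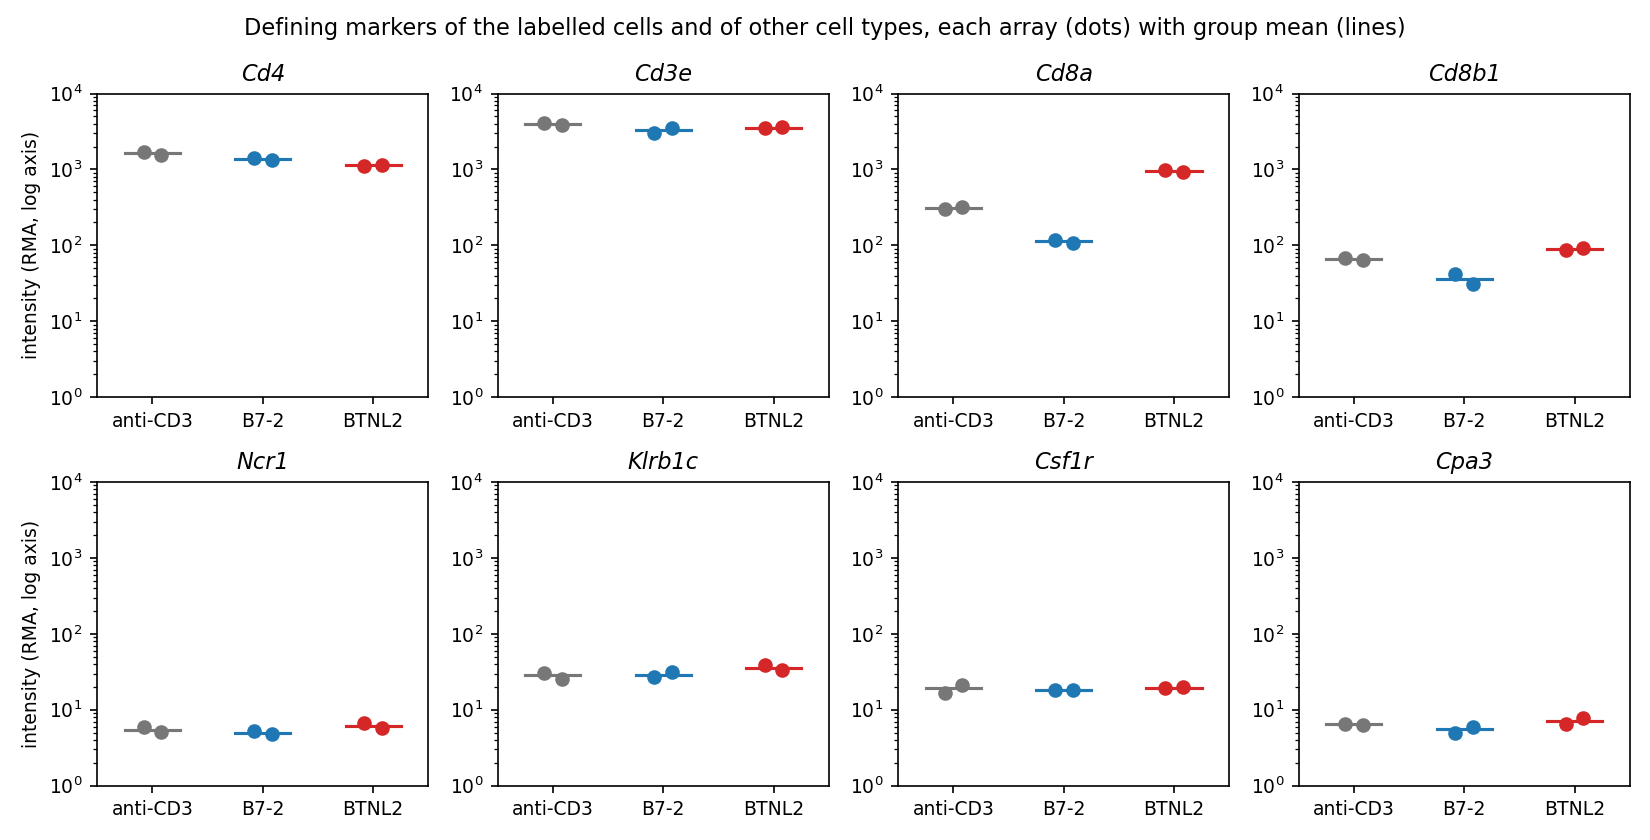
Intensity (RMA, the same log axis in each panel) of defining markers of CD4 T cells (Cd4, Cd3e), CD8 T cells (Cd8a, Cd8b1), natural killer cells (Ncr1, Klrb1c), myeloid cells (Csf1r) and mast cells (Cpa3); dots are arrays and lines group means. Cd8a and Cd8b1 are lowest with B7-2 and highest with BTNL2, while Ncr1, Klrb1c, Csf1r and Cpa3 were not called; other natural killer cell genes, not drawn, were higher with BTNL2.

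Further genes of T helper states differed in their order of groups. Foxp3, the regulatory T cell factor, was not called between B7-2 and anti-CD3 (-0.24 ± 0.12, limma, adjusted p = 0.209) and rose by 2.04 ± 0.12 with BTNL2 (limma, adjusted p = 6.59e-05). It was 78.8 and 96.4 with anti-CD3 and 70.3 and 77.6 with B7-2. These groups were near neighbours, as for Gzma and Gzmk, but B7-2 was lowest without overlap, as for Gzmc. Ifng, the interferon gamma gene, rose in both steps (2.26 ± 0.12 and 1.11 ± 0.12, limma, adjusted p = 0.000166 and 0.000837), and Il2ra, the IL-2 receptor alpha gene, in neither (0.11 and -0.16).

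The genes whose profiles over the 6 arrays were nearest to each member were found by the root mean square difference of mean-centred log2 values. For Gzma they were Kbtbd8, Kcnk6 and Ppm1h (0.12, 0.12 and 0.13). For Gzmk they were Tmcc3, Mical2 and Myadm (0.07, 0.09 and 0.12). For Gzmc they were Samd9l, Igf1 and Pld4 (0.20, 0.21 and 0.24), and for Ctsw Ipcef1, Myo6 and Iigp1 (0.17, 0.24 and 0.24). Ipcef1, for example, was 726 and 760 with anti-CD3, 169 and 162 with B7-2, and 1136 and 848 with BTNL2, so it shared the low B7-2 arrays of Ctsw. Among the members themselves Gzma and Gzmk were nearest (0.27) and Gzma and Ctsw farthest (1.13).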

How the data were processed

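The deposited intensities are probe set values made by the authors with RMA (per the submitters' processing notes), which corrects background, normalizes arrays to each other and summarises probes. No version or chip definition is given in the sources used here. The labelled material was amplified from 50 ng of RNA, per the labels. A shift shared by most transcripts would be lost, because RMA gives all arrays the same distribution. The values were on a linear scale, where log2 values had been foreseen, and were log2 transformed.

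Symbols came from the platform annotation, updated by Entrez identifier. Each gene was represented by its probe set of highest mean, which gave 17097 genes with no filter. The 6 arrays entered 1 fit with limma 3.58.1 (R 4.3.3, lmFit and eBayes, two-sided, without a replicate block), and p-values were Benjamini-Hochberg adjusted over all genes of a comparison. Across genes, r was 0.997 to 0.998 within groups and 0.974 to 0.987 between them, and the number of arrays limits the precision. The procedure was tested on simulated data. Promoter identity was computed by global alignment with Biopython 1.88.

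The members, the lists and the rule for named genes were chosen with earlier results of these data known. The rule names the members, all other granzyme genes, up to 3 called genes of smallest p per granule list and comparison with a few fixed granule and factor genes, the 3 most alike genes per member, and defining cell markers. Alternatives changed the variance prior, which arrays were fitted, a filter on dim genes (40th percentile), an offset of 16, the scaling, the probe sets per gene, the replicate block and each array in turn. Replicate numbers did not pair the samples: same-numbered deviations correlated at -0.064, -0.00097 and -0.027. No chromosome positions of array probe sets are given, since the files name no genome build.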

Additional observations from a re-analysis of the deposited data

How the results depend on the processing

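Over 171 gene differences and the alternatives tried, 2550 of 2721 values kept their direction and their side of the threshold or moved by less than the spread, 88 lost a call, 55 gained one, 6 moved without a test and 22 changed sign. Where the variance prior followed intensity, 39 granule genes were called between B7-2 and anti-CD3 wells in place of 25. Testing each probe set called 7809 probe sets in that comparison, 6222 between BTNL2 and B7-2 and 10010 between BTNL2 and anti-CD3. Leaving out 1 array each left 2454 to 4128, 2142 to 3015 and 3726 to 4870 genes called, and 16 to 26, 27 to 34 and 31 to 45 granule genes. The counts between B7-2 and anti-CD3 that fell by over 1.5 times were 2454 and 2647 without the first and second anti-CD3 array and 2722 and 2687 without the first and second B7-2 array. Between BTNL2 and B7-2 they were 2181, 2313 and 2142 without the first B7-2, second B7-2 and first BTNL2 array. Fewer arrays leave fewer degrees of freedom. Leaving out an array of the group outside a comparison repeats the fit of only the groups compared. The totals therefore count that fit more than once.

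With the replicate block 3765, 3160 and 4827 genes and 23, 38 and 46 granule genes were called, within 1.5 times of the counts without it. Among the granzyme genes and Prf1, the block ended the calls of Prf1 between B7-2 and anti-CD3 (adjusted p = 0.0516) and of Gzmm between BTNL2 and anti-CD3 (0.0584), and it made those of Gzmd against B7-2 (0.0329) and Gzmg against anti-CD3 (0.0165).

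The mean of all probe sets turned the sign for Prf1 (-0.30), Eomes (0.019), Ap3b1 (0.024) and Il2ra (-0.011) between B7-2 and anti-CD3 and for Ctsa (-0.028) between BTNL2 and B7-2, as the probe sets of these genes differ. Leaving out 1 array each, differences between B7-2 and anti-CD3 that changed sign ranged from -0.19 to 0.93 for Gzmd, -0.11 to 0.044 for Ctss, -0.24 to 0.050 for Eomes, -0.24 to 0.038 for Fcer1a, -0.090 to 0.18 for Klrb1c, -0.24 to 0.12 for Csf1r, -0.36 to 0.13 for Gzmk, -0.19 to 0.00090 for Ctsl and -0.15 to 0.039 for Lyz2. Between BTNL2 and B7-2 the ranges were -0.015 to 0.12 for Ctsc, -0.011 to 0.21 for Ctsa and -0.71 to 0.11 for Gzmf, and between BTNL2 and anti-CD3 -0.13 to 0.22 for Csf1r and -0.043 to 0.78 for Gzmf. Of the differences that changed sign, that of Prf1 was called with all arrays and the others were not. Signal over background limits Gzmn, at 5.68 to 6.82 beside array medians of 3.68 to 4.49 for the nonspecific controls, more than Gzmk.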
